A study of Mus musculus with 23 samples.

Results

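The 10 Toll-like receptor (TLR) genes Tlr1 to Tlr9 and Tlr13 were followed in microglia sorted from mouse retinas. They were chosen by gene symbol, matched to the Ensembl identifiers of the deposited table, and all 10 were found among its 35825 genes. RNA-seq was performed on GFP+ microglia in 23 libraries. CX3CR1-GFP mice, which the study describes as heterozygous for a GFP knock-in at the Cx3cr1 locus and which carry intact Spp1 (WT), were compared with Spp1 KO; CX3CR1-GFP mice (KO). The KO mice carry the GFP reporter, at a dose that was not tested here, and a global deletion of Spp1. Retinas were naïve (4 WT and 4 KO libraries), were taken 4 weeks after elevation of the intraocular pressure (IOP) by injection of microbeads into the anterior chamber (4 WT and 4 KO libraries), or were taken 7 days after optic nerve crush (ONC; 3 WT and 4 KO libraries). Each library came from pooled retinas of several mice that shared genotype and condition, the ages of the mice are not given in the sources used here, and the reporter marks every cell that uses the Cx3cr1 promoter, macrophages included. The comparisons ask whether the receptors responded to each injury in each genotype, and whether the genotypes differed.

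TLRs are membrane receptors of the innate immune system, and microglia are among the cells of the retina known to carry them. TLR2 pairs with TLR1 or TLR6 at the cell surface to bind bacterial lipopeptides, TLR4 senses lipopolysaccharide with its partner MD-2, and TLR5 senses flagellin. TLR3, TLR7, TLR8, TLR9 and TLR13 lie in endosomes and bind nucleic acids. Ligand binding recruits the adaptors MyD88 or TRIF, and the signal reaches NF-κB and interferon regulatory factors, which switch on cytokine, chemokine and interferon genes.

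The genes lie on the mouse build GRCm38 (GENCODE release M21) as protein-coding genes. Tlr2 lies on chromosome 3 (83836272 to 83841767, minus strand), Tlr1 and Tlr6 lie close together on chromosome 5 (64924679 to 64933563 and 64952031 to 64960097, minus strand), Tlr5 lies on chromosome 1 (182954788 to 182976044, plus strand), and Tlr7, Tlr8 and Tlr13 lie on chromosome X (167304929 to 167330558 and 167242696 to 167264329, minus strand, and 106143204 to 106160493, plus strand). Tlr3 lies on chromosome 8 (45395665 to 45411080, minus strand), Tlr4 on chromosome 4 (66827584 to 66930284, plus strand) and Tlr9 on chromosome 9 (106222598 to 106226883, plus strand). Tlr1 and Tlr6 are close paralogs: 18.3% of the 31-base windows of the Tlr1 transcripts and 4.30% of the 150-base windows, the length of a read, also occur in Tlr6, so part of their reads could be assigned to either gene. The other 8 receptors shared 0 such windows with another TLR. Tlr3 overlaps the gene Gm45542, and whether reads were counted by strand is not given in the sources used here.

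The bases before the start sites of Tlr2, Tlr1, Tlr13 and Tlr5 are shown because, on the deposited scale and in the fit over all 6 groups, Tlr2 and Tlr1 were the receptors called higher after ONC in both genotypes, Tlr13 was the most abundant receptor per kilobase in naïve retinas, and Tlr5 was the only receptor called lower after an injury (other settings below add Tlr4, Tlr8 and Tlr13). They are RefSeq promoter sequences of build GRCm38.p6, taken from up to 250 bases before the RefSeq start and ended before the first base of the GENCODE gene, at chr3:83841768-83841858 (minus strand), chr5:64933564-64933808 (minus strand), chrX:106143025-106143203 (plus strand) and chr1:182954538-182954787 (plus strand). Capitals mark matches to the NF-κB consensus (in Tlr2, where 2 overlapping matches form 1 run) or to the core GAGGAA of PU.1, a lineage factor of microglia (in Tlr1 and Tlr13), searched on both strands.
Tlr2: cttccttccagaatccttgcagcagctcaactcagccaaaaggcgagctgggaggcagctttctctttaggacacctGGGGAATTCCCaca
Tlr1: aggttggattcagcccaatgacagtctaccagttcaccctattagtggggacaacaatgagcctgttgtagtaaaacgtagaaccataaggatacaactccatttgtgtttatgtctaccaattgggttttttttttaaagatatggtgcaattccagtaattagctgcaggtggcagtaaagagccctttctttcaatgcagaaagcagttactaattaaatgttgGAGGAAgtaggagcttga
Tlr13: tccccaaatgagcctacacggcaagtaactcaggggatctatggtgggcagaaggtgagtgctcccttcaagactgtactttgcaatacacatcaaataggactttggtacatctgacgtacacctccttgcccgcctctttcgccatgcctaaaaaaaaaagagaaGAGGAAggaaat
Tlr5: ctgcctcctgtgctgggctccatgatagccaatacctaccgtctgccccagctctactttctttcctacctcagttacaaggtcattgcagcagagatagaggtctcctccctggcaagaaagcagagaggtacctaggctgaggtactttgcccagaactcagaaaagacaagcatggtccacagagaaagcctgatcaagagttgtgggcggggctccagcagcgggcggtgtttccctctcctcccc
RefSeq promoters were at hand for 8 of the 10 receptors, and Tlr4 and Tlr7 are named only. The NF-κB consensus was found within 250 bases of the start in 2 of these 8 receptors (Tlr2 and Tlr3), or 2 of their 10 promoters. It was found in 7.25% of 32851 promoters of all genes. The PU.1 core was found in 4 of 8 receptors (Tlr1, Tlr8, Tlr9 and Tlr13), or 4 of their 10 promoters, and in 23.3% of all promoters. A match describes letters and is not evidence of binding.

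Libraries held 22180480 to 30296094 reads on genes, so that 3 reads corresponded to 2.41 to 4.03 normalized counts, and replicates of a group correlated at 0.876 to 0.956 (Pearson, log2 values). Spp1, the deleted gene, exceeded 10% of the mean of the WT libraries of the same condition in 6 of the 12 libraries labelled KO (1 naïve, 2 IOP and 3 ONC), so KO below means the libraries labelled KO. Cx3cr1, which holds the reporter, was at 952 to 1233 normalized counts in KO IOP, 9417 to 26283 in KO naïve and 12869 to 46130 in KO ONC libraries. Whether all groups carry the same dose of the reporter was not tested. The sum of 10 homeostatic microglia genes such as P2ry12 and Tmem119, given here as normalized counts, set 3 libraries apart. It was 291927, 312309.6, 964801 and 353994 in KO naïve replicates 1 to 4, against 675164 to 891601 in WT naïve, 446473 to 808673 in WT IOP, 630102 to 1276990 in WT ONC, 763284 to 1037053 in KO IOP and 776041 to 1077141 in KO ONC. All 10 genes of the list were detected in every library. KO naïve replicates 1, 2 and 4 thus held far less microglial transcript than replicate 3, and their sums of 12 rod photoreceptor genes (713171, 672721 and 766619) were higher than in any other library. The receptor comparisons with KO naïve retinas are therefore also given relative to the microglia list. Values of single pathway genes and counts by role are on the deposited scale unless said otherwise. In bulk samples, fewer cells of a type and less RNA per cell cannot be told apart.

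In naïve WT retinas, Tlr13 and Tlr2 led the family. Levels per kilobase of exon (normalized counts per kilobase, mean ± SD, n = 4) were 1526 ± 201 for Tlr13, a receptor of bacterial ribosomal RNA, 1211 ± 223 for Tlr2 and 722 ± 94.4 for Tlr7, a sensor of single-stranded RNA. Tlr4, Tlr1 and Tlr3, the last a sensor of double-stranded RNA, followed at 442 ± 124, 393 ± 88 and 291 ± 96.5. The level of Tlr6 was 195 ± 41.5, and those of Tlr8, Tlr5 and Tlr9 were 60.8 ± 21.1, 27.4 ± 9.24 and 19.8 ± 10.6. Neighbours in this order overlapped between libraries, with 3 exceptions: the lowest Tlr2 value (962 per kilobase) lay above the highest of Tlr7 (809), the lowest of Tlr7 (625) lay just above the highest of Tlr4 (623), and the lowest of Tlr6 (146) lay above the highest of Tlr8 (78.2).

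The order shifted after ONC. In WT ONC, Tlr2 was highest at 4827 ± 2107 per kilobase, followed by Tlr13 (1237 ± 342), Tlr7 (1139 ± 165) and Tlr1 (1007 ± 344), and Tlr5 was lowest at 0.0934 ± 0.162 (n = 3). The lowest Tlr2 value (2666) lay above the highest Tlr13 value (1534). Tlr2 was the receptor with the highest mean per kilobase in all 4 groups of injured retinas, and Tlr13 in both naïve groups. Over the 23 libraries, Tlr11 ranged from 0 to 77.5 and Tlr12 from 259 to 1420 normalized counts, and both were left out of the counts below.

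**Figure D1:**
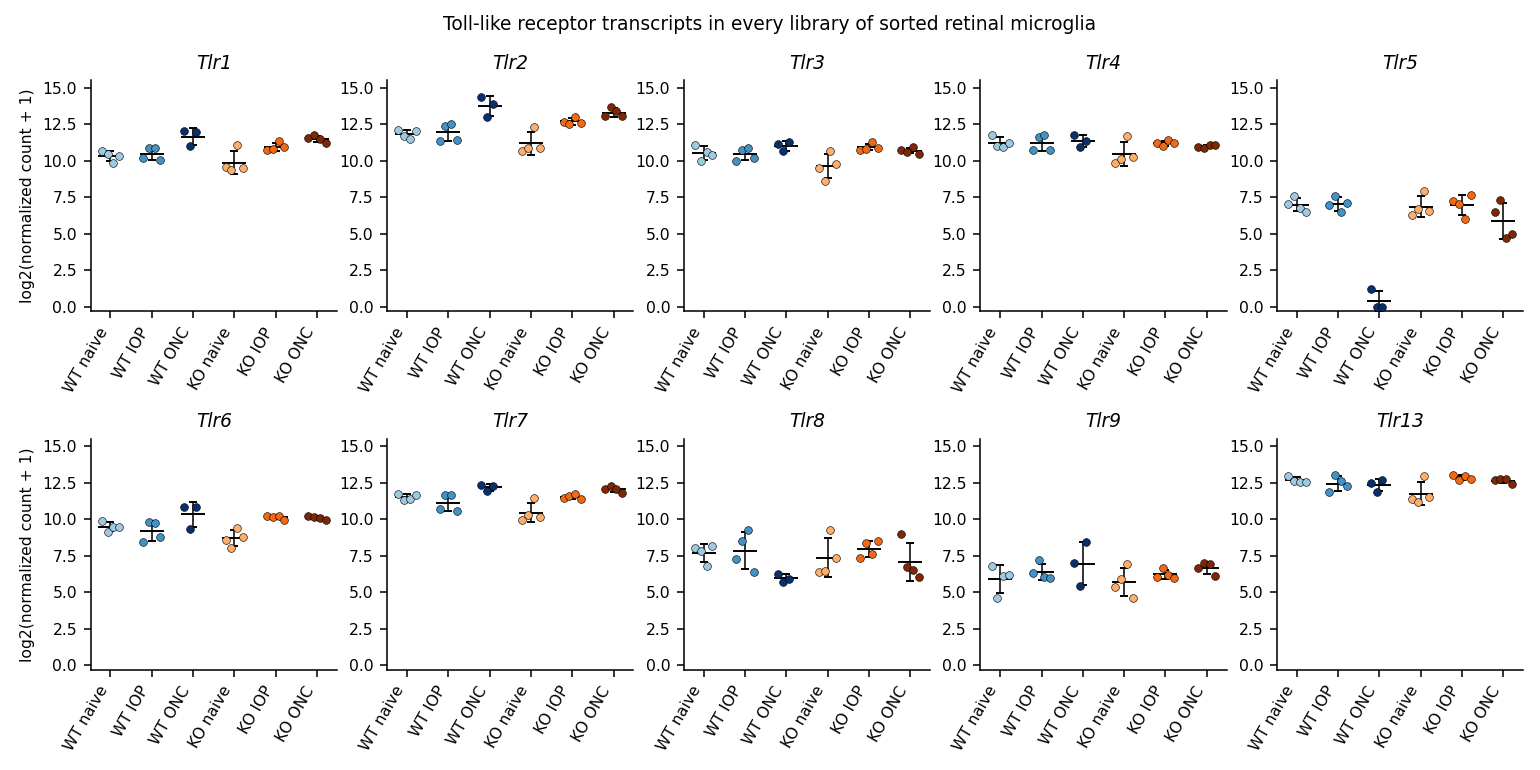
Each panel plots 1 receptor as log2(normalized count + 1) against the 6 groups; points are libraries, and the bar is the mean with its SD. Tlr2 and Tlr1 stand higher in both ONC groups, Tlr5 is at 0 to 1.34 normalized counts in the 3 WT ONC libraries, and KO naïve replicate 3 is the highest KO naïve library for all 10 receptors.

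After ONC, Tlr2 and Tlr1 were higher in WT microglia and Tlr5 was almost undetected. Of 10 receptors, 3 were called (limma on log2 values; a call needed a log2 fold change beyond 0.58 in either direction and a p under 0.05 after Benjamini-Hochberg adjustment), against 18.1% of the 17102 genes tested. The median log2 fold change was 0.58 over the receptors and -0.097 over all genes. Where nothing else is said, values in parentheses below are log2 fold changes from this fit with their standard errors (SE) and adjusted p values. Libraries are pools of mice, and p-values measure the spread between them. Fold changes are on the log2(normalized count + 1) scale, which understates those of low genes.

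Tlr2, the shared partner of both lipopeptide receptors, had 4315, 3278, 2900.2 and 4110.3 normalized counts in the 4 WT naïve libraries and 20728, 8037 and 14883 in the 3 WT ONC libraries. The groups did not overlap, and the mean was 3.98 times as high after ONC (log2 fold change 1.91 ± 0.361 SE, adjusted p = 8.76e-04). Tlr2 was called in all 7 fits that left out 1 library (adjusted p 1.49e-04 to 0.0131), and with the border macrophage covariate described below its log2 fold change was larger with a larger error (2.57 ± 0.746 SE, adjusted p = 0.0637).

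Tlr1 had 1613, 1433, 919 and 1292 normalized counts in WT naïve and 4147, 2047 and 3915 in WT ONC libraries. Every ONC library lay above every naïve one, with a mean 2.56 times as high (log2 fold change 1.32 ± 0.34 SE, adjusted p = 0.0101). The call was lost without WT ONC replicate 1 (adjusted p = 0.0731), without WT ONC replicate 3 and with that covariate, where the fold change was also larger (2.42 ± 0.664 SE, adjusted p = 0.0504). Tlr6, the alternative partner of TLR2, had 923, 545, 714 and 719.7 normalized counts in WT naïve and 1779.6, 641 and 1819 in WT ONC libraries. WT ONC replicate 2 lay within the naïve range, and Tlr6 was not called (0.84 ± 0.358 SE, adjusted p = 0.104). DESeq2 on the recovered reads did call it (0.96 ± 0.361 SE, adjusted p = 0.0365), for 4 of 10 receptors in all, while edgeR called 3. Of all genes tested, DESeq2 called 3676 of 17078 and edgeR 2641 of 17102. Leaving out WT ONC replicate 2 gave calls for 5 of 10 receptors, with Tlr6 and Tlr9 added. The share of all genes called in that fit is not given here.

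Tlr5 had 132, 193, 109.8 and 91 normalized counts in WT naïve libraries and 1.34, 0 and 0 in WT ONC libraries. Only 1 read of Tlr5 was found in the 3 WT ONC libraries together, and a count of 0 allows up to 3.45 and 3.51 normalized counts in replicates 2 and 3. The ratio of WT naïve to WT ONC was 328 (exact 95% interval 58.7 to 12985, counting error only), and Tlr5 was called lower (log2 fold change -6.58 ± 0.605 SE, adjusted p = 8.77e-07). A list of 7 border macrophage genes such as Mrc1 and Cd163 moved with it. All 7 were detected in both groups, 6 of them in every WT ONC library, but their sum was 17284 to 35178 in WT naïve and 2154 to 8046 in WT ONC libraries, and Mrc1 was 6164 to 11738 and 200 to 1459, respectively. Other lists also fell without overlap, among them 10 retinal neuron genes other than rods (35365 to 40097 in WT naïve, 6203 to 20421 in WT ONC libraries). The rod list overlapped between these groups. With the mean log2 value of the border macrophage list as a covariate (added after the data were examined), Tlr5 was still called (-5.16 ± 1.23 SE, adjusted p = 0.0245). Genes called among all tested fell from 3093 to 529 with this covariate.

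Tlr8 had 256, 226, 109.8 and 280.5 normalized counts in WT naïve and 75.2, 51.8 and 58.5 in WT ONC libraries. The groups did not overlap, but Tlr8 was not called (-1.73 ± 0.722 SE, adjusted p = 0.0959). It was called lower in a fit of the 2 groups alone (-1.73 ± 0.439 SE, adjusted p = 0.0447) and with the rod list as a covariate (-2.39 ± 0.732 SE, adjusted p = 0.0389), and its fold change turned positive with the border macrophage covariate (1.77 ± 1.25 SE, adjusted p = 0.475). Tlr7 had 3302, 2550.2, 2687 and 3254 in WT naïve and 5120.1, 3876 and 4952 in WT ONC libraries, which did not overlap either, and was not called (0.66 ± 0.292 SE, adjusted p = 0.119). The remaining 4 receptors overlapped between the groups and were not called.

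Of these 4, Tlr3 was at 995 to 2194 normalized counts in WT naïve and 1605 to 2471 in WT ONC libraries (0.51 ± 0.336 SE, adjusted p = 0.295). Tlr4 was at 1989 to 3460.3 and 1959 to 3392, respectively (0.12 ± 0.339 SE, adjusted p = 0.834). Tlr13 was at 6079 to 7862 and 3712 to 6602 (-0.33 ± 0.316 SE, adjusted p = 0.483), and was called lower with the rod covariate (-0.86 ± 0.21 SE, adjusted p = 0.0103). The sensor of CpG DNA, Tlr9, spread most in WT ONC libraries, at 130.2, 42.6 and 339 normalized counts, against 113, 22.9, 69.3 and 70.6 in WT naïve libraries (1.04 ± 0.634 SE, adjusted p = 0.258).

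After IOP elevation, 0 of 10 receptors were called in WT microglia, against 1.56% of all genes. No receptor reached an unadjusted p under 0.05 in limma (0 of 10), edgeR and DESeq2 also called 0, and the groups overlapped for all 10. Tlr2 had 2667, 5253, 5959.5 and 2786 normalized counts in WT IOP libraries, Tlr13 had 3622, 8445, 6257 and 4843 and Tlr7 had 1644, 3221, 3194 and 1501. Replicates 1 and 4 were low for all 3, and they were also the WT IOP libraries with the least microglial transcript (446473 and 499545 on the microglia list). Fold changes ranged from -0.38 for Tlr7 (adjusted p = 0.581) to 0.45 for Tlr9 (adjusted p = 0.796) on the log2 scale, with standard errors of 0.271 to 0.668. Lens genes moved with the group: a list of 10 summed to 33398 to 240868 normalized counts in WT IOP libraries and to at most 4022 in the others, and its part in these values was not tested.

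**Figure D2:**
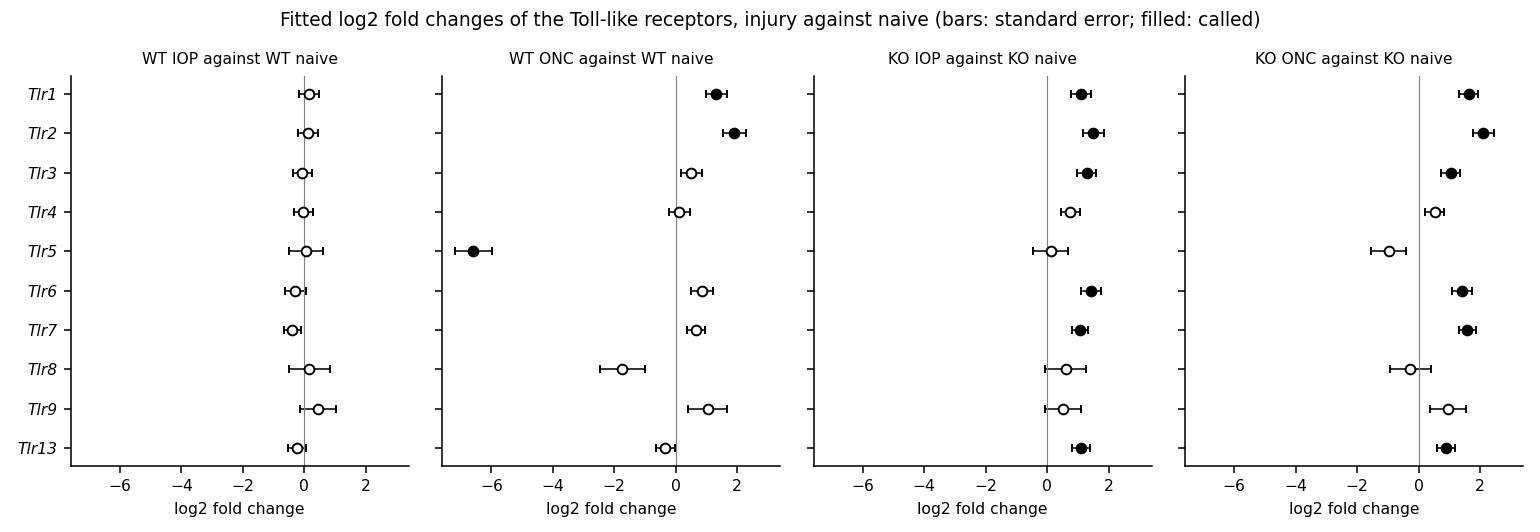
Points are fitted log2 fold changes of each receptor on the log2(normalized count + 1) scale, bars are standard errors, and filled points were called. Filled points number 3 for WT ONC, 0 for WT IOP, and 6 for each injury against KO naïve.

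In KO microglia, 6 of 10 receptors were called higher after ONC, against 23.6% of all genes, and 6 of 10 after IOP elevation, against 7.88% of all genes. They were Tlr1, Tlr2, Tlr3, Tlr6, Tlr7 and Tlr13 in both comparisons, which share the 4 KO naïve libraries. After ONC, Tlr2 had 1621, 1907, 5147 and 1837 normalized counts in KO naïve and 8479.5, 12966, 10709 and 8507 in KO ONC libraries (2.10 ± 0.334 SE, adjusted p = 1.49e-04). Tlr1 had 752, 651, 2119 and 721 in KO naïve and 3036, 3399, 2831 and 2338 in KO ONC libraries (1.63 ± 0.315 SE, adjusted p = 8.50e-04). Neither receptor overlapped between these groups, and KO naïve replicate 3 stood above the other KO naïve libraries and above every WT naïve library for both.

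The nucleic acid sensors followed the same split of the KO naïve libraries. Tlr7 had 981, 1223, 2778 and 1152 normalized counts in KO naïve, 2757, 3004, 3428 and 2645 in KO IOP and 4281, 4830.5, 4229 and 3584 in KO ONC libraries (1.59 ± 0.271 SE, adjusted p = 2.96e-04 for ONC and 1.07 ± 0.271 SE, adjusted p = 0.0246 for IOP). Every KO ONC library lay above every KO naïve library for Tlr7, whereas KO IOP overlapped with replicate 3. Tlr13 had 2596, 2325, 7727 and 2939 normalized counts in KO naïve, 8449.6, 6516, 8015 and 6836 in KO IOP and 6545, 6822, 6739 and 5379.5 in KO ONC libraries (1.11 ± 0.293 SE, adjusted p = 0.0282 for IOP and 0.89 ± 0.293 SE, adjusted p = 0.0301 for ONC). KO naïve replicate 3 lay within or above the injured range of Tlr13, and only replicates 1, 2 and 4 lay below it. The call of Tlr13 after ONC held in 2 of 8 fits that left out 1 library.

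Tlr3 had 709, 400.5, 1618 and 887 normalized counts in KO naïve and 1738, 1815, 2459 and 1868 in KO IOP libraries (1.29 ± 0.311 SE, adjusted p = 0.0224), and 1671, 1583, 1972 and 1429 in KO ONC libraries (1.05 ± 0.311 SE, adjusted p = 0.0173). KO IOP libraries lay above all KO naïve libraries for Tlr3, and KO ONC libraries overlapped with them.

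Tlr6 had 375, 265, 662 and 442 normalized counts in KO naïve, 1192, 1112, 1169 and 968 in KO IOP and 1212, 1138, 1066 and 985 in KO ONC libraries, with both injured groups above all naïve libraries (1.42 ± 0.332 SE, adjusted p = 0.0204 for IOP and 1.41 ± 0.332 SE, adjusted p = 0.00384 for ONC). Tlr2 had 6407, 5909.9, 8213 and 6053 normalized counts in KO IOP libraries (1.50 ± 0.334 SE, adjusted p = 0.0173). Tlr1 had 1672, 1812, 2609 and 1990.2 normalized counts in KO IOP libraries (1.10 ± 0.315 SE, adjusted p = 0.0383). Tlr2 did not overlap between KO IOP and KO naïve, whereas Tlr1 did.

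Tlr4, which pairs with CD14 and MD-2, was not called after either injury in KO microglia. It had 907, 1089.7, 3291 and 1197 normalized counts in KO naïve, 2384, 2032, 2727 and 2359.7 in KO IOP (0.75 ± 0.314 SE, adjusted p = 0.13) and 1994, 1832, 2156 and 2125 in KO ONC libraries (0.53 ± 0.314 SE, adjusted p = 0.228). KO naïve replicate 3 lay above all 8 injured KO libraries for Tlr4.

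The 3 receptors of low level, Tlr5, Tlr8 and Tlr9, were not called in either comparison and overlapped between the groups. Tlr5 had 77.6, 104, 243 and 91.8 normalized counts in KO naïve, 151, 129, 62.9 and 201 in KO IOP and 91, 158, 25.7 and 30.5 in KO ONC libraries (-0.98 ± 0.56 SE, adjusted p = 0.207 for ONC). Tlr8 was at 84.1 to 609 in KO naïve, 164 to 354 in KO IOP and 65.7 to 502 in KO ONC libraries (-0.28 ± 0.668 SE, adjusted p = 0.788 for ONC). Tlr9 was at 22.9 to 120.1, 62.6 to 102 and 66.7 to 127, respectively (0.96 ± 0.587 SE, adjusted p = 0.242 for ONC).

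The calls after IOP elevation in KO microglia depended on 3 KO naïve libraries. Leaving out KO naïve replicate 1, 2 or 4 each brought the count from 6 to 0, and leaving out KO IOP replicate 3 or 2 brought it to 2 and 3. Calls among all genes in these fits are not given here, so the drop was not read as particular to the receptors. KO naïve replicates 1, 2 and 4 differed from the KO IOP libraries in more than microglial and rod transcript. The sum of 4 Y-linked genes was 3593, 4927, 184 and 4873 normalized counts in KO naïve replicates 1 to 4 and 101 to 169 in KO IOP libraries, and Cx3cr1 was at 9417 to 26283 in KO naïve and 952 to 1233 in KO IOP libraries. With the mean log2 value of the Y-linked list as a covariate, 0 receptors and 8 of all genes tested were called after IOP elevation, and Tlr2 was at 1.58 ± 0.442 SE, adjusted p = 0.142. After ONC, leaving out 1 library gave counts of 4 to 7. With the rod list as a covariate 1 receptor, Tlr2, was called (0.95 ± 0.208 SE, adjusted p = 0.0134), and genes called among all 17102 fell from 4043 to 526. No receptor was called after either injury without the KO libraries over 10% of WT Spp1, which leaves 1 KO ONC library, while Tlr2 was 2.03 after ONC and 1.47 after IOP elevation, Tlr1 was 1.50 and 1.06, and Tlr6 was 1.32 and 1.47 on the log2 scale. In that fit the genes called among all 17102 fell from 4043 to 190 after ONC and from 1347 to 16 after IOP elevation. A fit with KO naïve replicate 3 as the only KO naïve library (added after the data were examined) assumes that the lone library varies like the other groups. Its lack of calls was not read as a result about the receptors. Tlr2 had a log2 fold change of 0.36 after IOP elevation and 0.96 after ONC in that fit.

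Per 1000 normalized counts of the microglia list, Tlr2, Tlr1 and Tlr7 were higher in every ONC library than in every naïve library of the same genotype, in both genotypes. Tlr2 was 4.84, 4.86, 3.45 and 4.96 in WT naïve, 5.97, 6.88, 7.37 and 5.58 in WT IOP and 16.2, 12.8 and 13 in WT ONC libraries. In KO libraries it was 5.55, 6.11, 5.33 and 5.19 (naïve), 6.69, 7.56, 7.92 and 7.93 (IOP) and 8.95, 12, 10.8 and 11 (ONC). The 4 KO naïve libraries, which ran from 1621 to 5147 normalized counts of Tlr2, lay between 5.19 and 6.11 on this scale. Tlr1 was 1.81, 2.12, 1.09 and 1.56 in WT naïve and 3.25, 3.25 and 3.41 in WT ONC libraries, and 2.58, 2.09, 2.2 and 2.04 in KO naïve and 3.2, 3.16, 2.86 and 3.01 in KO ONC libraries. Tlr7 was 3.7, 3.78, 3.2 and 3.93 in WT naïve and 4.01, 6.15 and 4.31 in WT ONC libraries, and 3.36, 3.92, 2.88 and 3.25 in KO naïve and 4.52, 4.48, 4.28 and 4.62 in KO ONC libraries. WT naïve and WT ONC libraries came within a narrow gap for Tlr7 (3.93 and 4.01). Tlr2 was also higher in every IOP library than in every naïve library of the same genotype, in both genotypes. WT Tlr1 after IOP elevation (2.13 to 2.56) lay just above WT naïve (1.09 to 2.12). KO Tlr4 after IOP elevation (2.49 to 3.09) lay just below KO naïve (3.11 to 3.49).

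When the log2 values were taken relative to the mean of the microglia list (added after the data were examined), 3 of 10 receptors were called in WT ONC, against 8.17% of all genes, and these were again Tlr2 (1.69 ± 0.173 SE, adjusted p = 1.34e-06), Tlr1 (1.10 ± 0.215 SE, adjusted p = 0.0022) and Tlr5 (-6.80 ± 0.629 SE, adjusted p = 3.53e-07). In KO ONC, 4 of 10 were called, against 52.5% of all genes, where the median of all genes was -1.26. Tlr2 was called higher (0.97 ± 0.161 SE, adjusted p = 3.75e-04), and Tlr4 (-0.61 ± 0.189 SE, adjusted p = 0.0129), Tlr8 (-1.41 ± 0.588 SE, adjusted p = 0.0481) and Tlr5 (-2.11 ± 0.582 SE, adjusted p = 0.00686) were called lower. Tlr1 (0.49, adjusted p = 0.0413) and Tlr7 (0.45, adjusted p = 0.0308) passed the adjusted p but not the fold. Tlr13 turned to -0.24 (adjusted p = 0.176) and Tlr3 to -0.085 (adjusted p = 0.757).

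After IOP elevation, 0 of 10 receptors were called on this scale in KO microglia, against 43.3% of all genes (median -1.14), and 0 of 10 in WT microglia, against 0.602% (median 0.36), with 1 and 2 receptors, respectively, at an unadjusted p under 0.05 in limma. Tlr2 had a shift of 0.49 ± 0.161 SE, adjusted p = 0.301 in WT and 0.49 ± 0.161 SE, adjusted p = 0.0231 in KO, which did not pass both thresholds in either, and the interaction was 0.0019 ± 0.227 SE, adjusted p = 0.995. The genes of the microglia list are themselves known to respond to activation, so a value relative to them is not a value per cell.

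**Figure D3:**
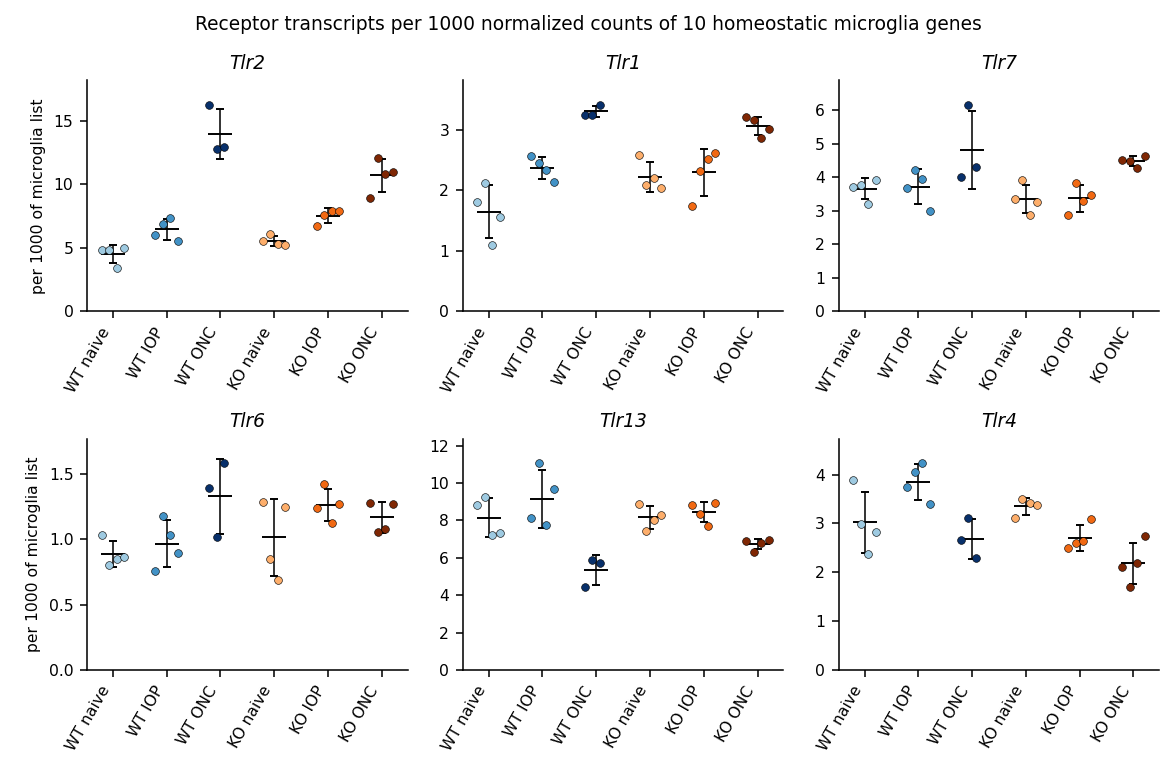
Panels plot 6 receptors as normalized counts per 1000 normalized counts of 10 homeostatic microglia genes, by group, with points for libraries and bars for mean and SD. Tlr2 is highest in WT ONC (12.8 to 16.2) and KO ONC (8.95 to 12), and Tlr13 is lower in both ONC groups than in the naïve groups.

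Tlr13 per 1000 of the microglia list was 8.82, 9.24, 7.25 and 7.34 in WT naïve and 4.43, 5.89 and 5.74 in WT ONC libraries, which did not overlap. Relative to the list, its log2 fold change in WT was -0.55 ± 0.166 SE, adjusted p = 0.0392, which passed the adjusted p but not the fold. It was 8.89, 7.44, 8.01 and 8.3 in KO naïve and 6.91, 6.33, 6.82 and 6.93 in KO ONC libraries, again without overlap. On the deposited scale, the log2 fold change of Tlr13 after ONC was -0.33 in WT (not called) and 0.89 in KO (called), and the interaction was 1.22 ± 0.431 SE, adjusted p = 0.238.

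**Figure D4:**
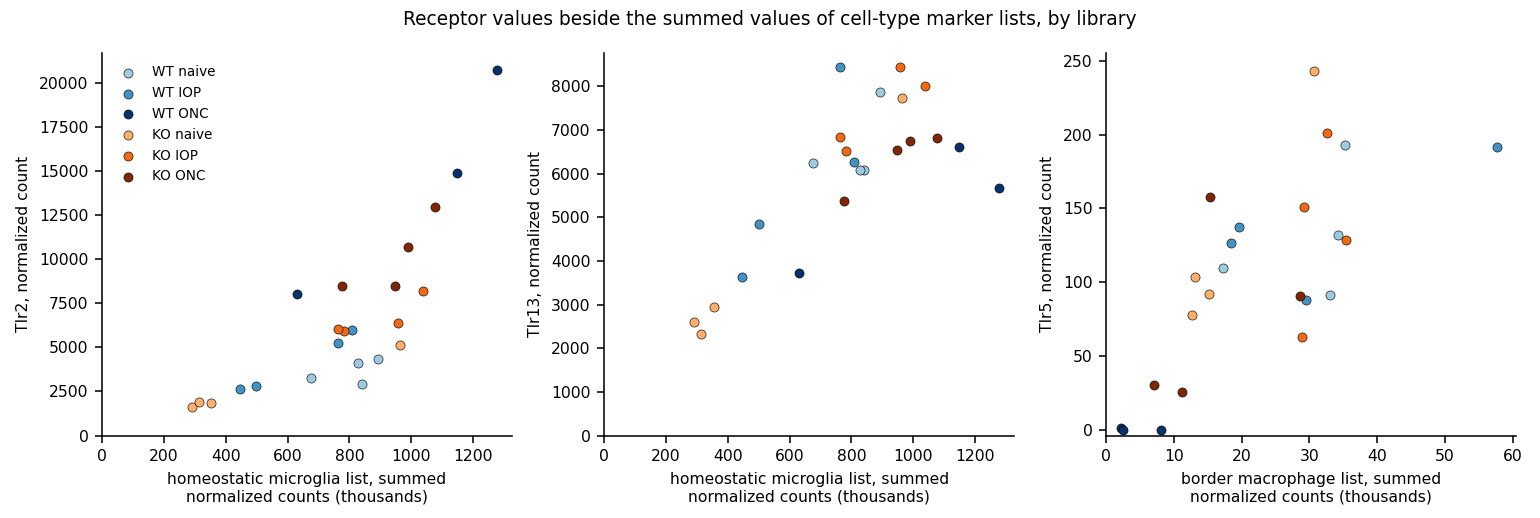
Points are the 23 libraries; Tlr2 and Tlr13 (normalized counts) are plotted against the summed microglia list, and Tlr5 against the summed border macrophage list, with both sums in units of 1000 normalized counts. KO naïve replicates 1, 2 and 4 lie at the low end for Tlr2 and Tlr13, and the 3 WT ONC libraries lie at the low end of the border macrophage list with Tlr5 at or near 0. KO ONC replicate 4 also lies at that end, with Tlr5 at 30.5.

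Between the genotypes in naïve retinas, 0 of 10 receptors were called, against 0.409% of all genes. Of the 10, 5 had an unadjusted p under 0.05 in limma, and that share over all genes is not given here. With edgeR, 0 receptors and 26 of 17102 genes were called, and with DESeq2 1 receptor (Tlr7) and 536 of 17078 genes. All 10 limma fold changes were negative, from -1.06 for Tlr7 (adjusted p = 0.0675) to -0.12 for Tlr5 (adjusted p = 0.936). The median over all genes was 0.025. Without KO naïve replicate 3, the library with the most microglial transcript of its group, 6 of 10 receptors were called lower in KO (Tlr1, Tlr2, Tlr3, Tlr4, Tlr7 and Tlr13), against 9.49% of all genes. Relative to the microglia list, where the median of all genes was 0.93, 8 of the 10 fold changes were positive. They ranged from -0.16 (Tlr7, adjusted p = 0.443) to 0.78 (Tlr5, adjusted p = 0.272), with Tlr13 at -0.025 ± 0.153 SE, adjusted p = 0.9 and Tlr1 at 0.44 ± 0.199 SE, adjusted p = 0.0959.

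After IOP elevation, 0 of 10 receptors differed between KO and WT, against 2.11% of all genes, with 2 of 10 at an unadjusted p under 0.05 (edgeR and DESeq2 called 0). Tlr6 had 339.8, 902, 837 and 448 normalized counts in WT IOP and 1192, 1112, 1169 and 968 in KO IOP libraries. These did not overlap, but Tlr6 was not called (0.93 ± 0.332 SE, adjusted p = 0.13). Tlr2, the other of the 2, had a log2 fold change of 0.75 ± 0.334 SE, adjusted p = 0.204. Cx3cr1, the locus of the reporter, was at 952 to 1233 normalized counts in KO IOP and 26836 to 54612 in WT IOP libraries. Comparisons with KO IOP libraries thus also differ in the level of Cx3cr1, and its part was not tested.

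After ONC, 1 of 10 receptors differed between KO and WT, against 0.0877% of all genes. This was Tlr5, with 91, 158, 25.7 and 30.5 normalized counts in KO ONC libraries against 1.34, 0 and 0 in WT ONC libraries (log2 fold change 5.48 ± 0.605 SE, adjusted p = 1.47e-04). The ratio of KO ONC to WT ONC was 182 (exact 95% interval 32.4 to 7220, counting error only). The border macrophage list moved with this difference too, at 28587, 15337, 11157 and 7006 in KO ONC and 2154, 2518 and 8046 in WT ONC libraries. These sums overlapped: KO ONC replicate 4 (7006) lay below WT ONC replicate 3 (8046), with Tlr5 at 30.5 and 0, respectively. With that list as a covariate, Tlr5 was no longer called (4.49 ± 0.951 SE, adjusted p = 0.342), in a fit where 0 of the 17102 genes tested were called. In a fit of the 2 groups alone, Tlr5 was not called and its fold change was the same (5.48 ± 0.83 SE, adjusted p = 0.383). In that fit 2 of all genes were called. Without the KO libraries over 10% of WT Spp1, which leaves KO ONC replicate 3 alone in its group, the log2 fold change of Tlr5 was 4.33. Tlr2 (-0.44 ± 0.361 SE, adjusted p = 0.758) and Tlr1 (-0.16 ± 0.34 SE, adjusted p = 0.936) were not called between the genotypes after ONC.

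The response to IOP elevation differed between the genotypes for 3 of 10 receptors (interaction), against 8.75% of all genes. These were Tlr6 (1.71 ± 0.469 SE, adjusted p = 0.0279), Tlr7 (1.46 ± 0.383 SE, adjusted p = 0.0237) and Tlr13 (1.36 ± 0.414 SE, adjusted p = 0.0438), each with a larger change in KO than in WT. Leaving out any 1 of KO naïve replicates 1, 2 and 4 or of WT IOP replicates 1 and 4 brought the count to 0, leaving out WT naïve replicate 1 or 4 brought it to 1, leaving out WT IOP replicate 2 or 3 brought it to 5, and leaving out KO naïve replicate 3 brought it to 7. Calls among all genes in these fits are not given here. Relative to the microglia list, 0 of 10 were called, against 35.8% of all genes (median -1.46), and the values were 0.33, 0.072 and -0.027. The 4 Y-linked genes checked summed to 101 to 169 normalized counts in KO IOP and to 1269 to 4918 in WT IOP libraries, and Tlr7 and Tlr13 are X-linked. With the mean log2 value of the Y-linked list as a covariate, Tlr6 (1.82 ± 0.602 SE, adjusted p = 0.151), Tlr7 (1.31 ± 0.489 SE, adjusted p = 0.185) and Tlr13 (1.07 ± 0.522 SE, adjusted p = 0.288) were not called. Genes called among all tested fell from 1496 to 73 with this covariate.

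The response to ONC differed between the genotypes for 1 of 10 receptors, Tlr5 (5.60 ± 0.824 SE, adjusted p = 0.00832), against 0.0702% of all genes. Leaving out KO naïve replicate 3 brought the count to 3. The call of Tlr5 shares the 3 WT ONC libraries with the comparison above. It was lost with a pseudocount of 5, relative to the microglia list (4.69 ± 0.857 SE, adjusted p = 0.127) and with the border macrophage covariate (adjusted p = 0.827). Genes called among all tested fell from 12 to 6, 0 and 0 in these settings, respectively. Tlr2 rose by 1.91 in WT and 2.10 in KO on the log2 scale, and the interaction was 0.20 ± 0.492 SE, adjusted p = 0.906. Relative to the microglia list, its sign turned (-0.72 ± 0.236 SE, adjusted p = 0.197, unadjusted p = 0.00611), as did that of Tlr1 (0.31 to -0.61, adjusted p = 0.236). With KO naïve replicate 3 as the only KO naïve library, the interaction of Tlr2 was -0.95 ± 0.542 SE, adjusted p = 0.787.

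The signalling partners of the receptors were followed with a list of 63 pathway genes, of which 62 passed the filter on low values. After ONC, 17 of 62 were called in WT (15 higher and 2 lower, median log2 fold change 0.46) and 30 of 62 in KO (30 higher, median 0.94), beside 18.1% and 23.6% of all genes. Among them, the induced targets had the highest median of the roles in both genotypes, 1.95 in WT (5 of 11 called, all higher) and 1.92 in KO (6 of 11, all higher). Relative to the microglia list, 16 of 62 were called in WT (15 higher and 1 lower), against 8.17% of all genes, and 17 of 62 in KO (7 higher and 10 lower), against 52.5% of all genes. On the deposited scale, the genotype by ONC interaction called 0 of 62 in limma, edgeR and DESeq2. Of all genes tested, these tools called 12, 3 and 223, respectively. In limma, 12 of the 62 had an unadjusted p under 0.05 for this interaction.

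Among genes called in every fit that left out 1 library, Ccl4, a chemokine gene switched on by TLR signals, had 200.2 to 331 normalized counts in WT naïve and 2665 to 4658 in WT ONC libraries (3.82 ± 0.438 SE, adjusted p = 6.17e-06), and 101 to 379 in KO naïve and 1793 to 3667 in KO ONC libraries (3.72 ± 0.405 SE, adjusted p = 3.88e-06). The groups did not overlap in either genotype. Cxcl10, an interferon-induced chemokine gene, rose from 156 ± 71.3 (SD, n = 4) to 1928 ± 629.6 (SD, n = 3) in WT (3.69 ± 0.518 SE, adjusted p = 5.01e-05). Slc15a4, an endosomal transporter needed for signalling of TLR7 and TLR9, rose from 251 ± 64.4 (SD, n = 4) to 2826 ± 1143 (SD, n = 3) in WT (3.45 ± 0.824 SE, adjusted p = 0.00598).

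Socs1, an inhibitor of cytokine signalling, was at 0 to 9.29 normalized counts in WT naïve and 61.7 to 172 in WT ONC libraries (5.77 ± 1.34 SE, adjusted p = 0.00491). Lbp, which hands lipopolysaccharide to CD14, was at 10.6 to 53.2 in WT naïve and listed at 0 in all 3 WT ONC libraries (adjusted p = 0.0124). In KO, Irf7, a transcription factor downstream of the endosomal TLRs, rose from 1215 ± 467 (SD, n = 4) to 13174 ± 3975 (SD, n = 4) (3.46 ± 0.27 SE, adjusted p = 6.53e-08). The protease Ctsb (2.51 ± 0.251 SE, adjusted p = 2.29e-06) and the cytokine genes Ccl3 (2.93 ± 0.325 SE, adjusted p = 4.55e-06) and Il1b (2.46 ± 0.42 SE, adjusted p = 3.00e-04) also rose in KO after ONC. These KO values are not given relative to the microglia list.

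**Figure D5:**
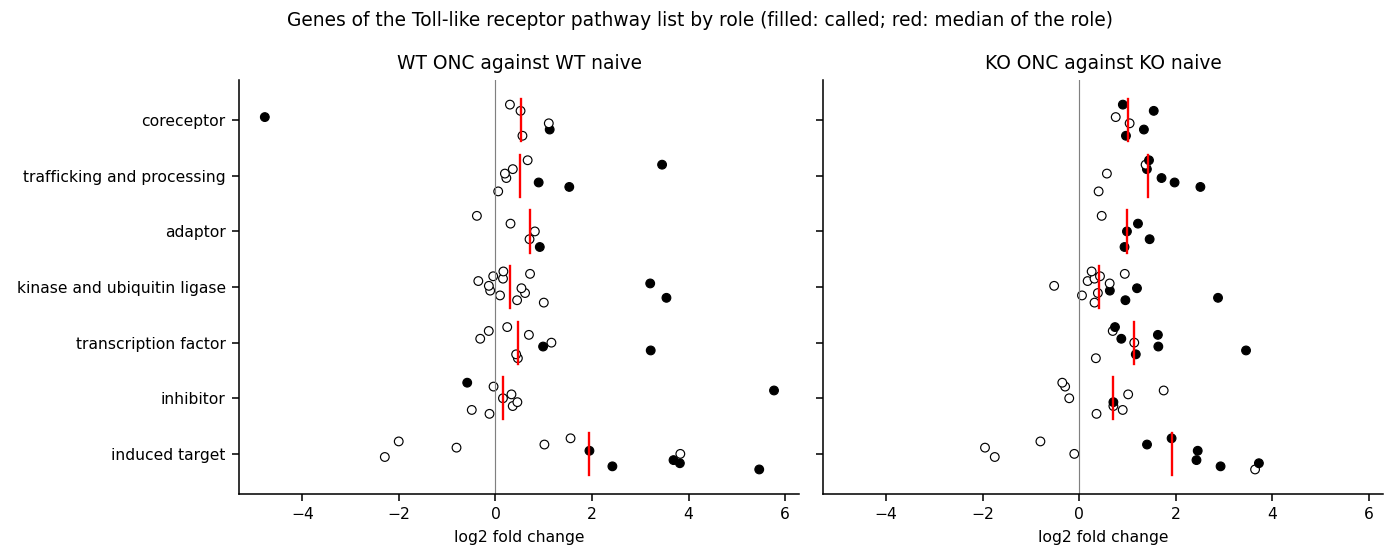
Each point is 1 of the 62 pathway genes, by role (rows) and fitted log2 fold change (horizontal axis) for WT ONC and KO ONC against naïve; filled points were called and the red line is the median of the role. The leftmost point in WT is Lbp, which was at 0 in WT ONC, so its position depends on the pseudocount. Induced targets have the highest median in both panels, 1.95 in WT and 1.92 in KO.

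By role, and beside the 18.1% (WT) and 23.6% (KO) of all genes, the pathway genes called after ONC were counted without a test between roles. In WT, 3 of 8 trafficking and processing genes, 1 of 5 adaptors (Myd88), 2 of 14 kinases and ubiquitin ligases, 2 of 9 transcription factors, 2 of 9 inhibitors (Socs1 higher, Tollip lower) and 2 of 6 coreceptors (Cd180 higher, Lbp lower) were called. In KO, the corresponding counts were 5 of 8, 4 of 5, 4 of 14, 6 of 9, 1 of 9 (Nfkbia) and 4 of 6, all higher. Cd14, the coreceptor of TLR4, had 7250.1 to 7925 normalized counts in WT naïve and 6797 to 18105 in WT ONC libraries and was not called (0.56 ± 0.331 SE, adjusted p = 0.243). Cd14 and the genes named beside these counts were chosen after their values were seen. On the deposited scale, Cd14 was called in KO (0.97 ± 0.307 SE, adjusted p = 0.0246), where 2 of the 8 fits that left out 1 library kept the call.

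After IOP elevation, 0 of 62 pathway genes were called in WT, against 1.56% of all genes (median -0.14; 7 at an unadjusted p under 0.05 in limma, with 0 called by edgeR and 2 by DESeq2) and 20 of 62 in KO (20 higher, median 0.72), against 7.88%, where edgeR called 8 and DESeq2 21. Relative to the microglia list, the corresponding counts were 1 of 62 (Irf7, higher), against 0.602% of all genes, and 9 of 62, all lower, against 43.3%. Between KO and WT, 1 of 62 was called in naïve retinas (Ctsl, lower in KO; 0.409% of all genes), 0 of 62 after IOP elevation (2.11% of all genes; 16 with an unadjusted p below 0.05 in limma, 0 called by edgeR and 1 by DESeq2) and 0 of 62 after ONC (0.0877% of all genes; 4 at an unadjusted p under 0.05, with 0 called by both other tools). The genotype by IOP interaction called 12 of 62, against 8.75% of all genes (edgeR called 5 and DESeq2 10), of which 5 were trafficking and processing genes. The endosomal proteases Ctss, Ctsl and Lgmn, which cut TLRs into their active form, were called in every fit that left out 1 library (1.99, 1.88 and 1.71 on the log2 scale). Ctss had 159809 to 202559 normalized counts in WT naïve, 101062 to 181052 in WT IOP, 66777 to 216348 in KO naïve and 245961 to 268476 in KO IOP libraries. Relative to the microglia list, 10 of 62 were called in this interaction, against 35.8% of all genes, and of these 10 only Ctss was higher.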

How the data were processed

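RNA of FACS-sorted GFP+ microglia was sequenced as paired reads of 150 bases. The methods name salmon, the submitters' processing notes name STAR, and both name DESeq2 and GRCm38. The authors deposited normalized counts, a signal equal to whole reads divided by 1 size factor per library: 100% of values were whole after rescaling (tolerance 0.01).

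Genes with at least 10 normalized counts in at least 3 libraries (17102 of 35825) were fitted with limma 3.58.1 in R 4.3.3 (lmFit and eBayes with trend) on log2(normalized count + 1) over the 6 groups. Calls needed a log2 fold change beyond 0.58 in either direction and a p under 0.05 after Benjamini-Hochberg adjustment. The script was tested on simulated data. Alternatives included edgeR 4.0.16 and DESeq2 1.42.0 on the recovered reads, and covariates for rod and Y-linked lists. The border macrophage covariate, values relative to the microglia list and the fit without KO naïve libraries 1, 2 and 4 were added after the data were examined.

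The receptors and lists were chosen with earlier results of these data known. All receptors were described. Of 63 pathway genes, at most the 5 largest changes per comparison were named, if called in every fit that left out 1 library, and Cd14 and genes named beside small counts by role or comparison were chosen after their values were seen. Intervals and floors cover counting error only.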

Additional observations from a re-analysis of the deposited data

Results flagged for a closer look

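KO naïve replicate 3 stood far above the other 3 KO naïve libraries for 7 receptors. Its normalized counts were 2119 for Tlr1 (the others at 651 to 752), 5147 for Tlr2 (1621 to 1907), 3291 for Tlr4 (907 to 1197), 243 for Tlr5 (77.6 to 104), 2778 for Tlr7 (981 to 1223), 609 for Tlr8 (84.1 to 158) and 7727 for Tlr13 (2325 to 2939). The microglia list moved with these values, at 964801 in replicate 3 and 291927 to 353994 in the others. Tlr8 was 502 in KO ONC replicate 1, against 65.7 to 106 in the other 3 libraries, where the border macrophage list also differed (28587 against 7006 to 15337). Tlr13 was 7862 in WT naïve replicate 1, against 6079 to 6239 in the others. These are 9 of the 50 groups of 4 libraries examined, and 7 of the 9 come from KO naïve replicate 3. The rate by chance, about 1 in 20, holds for independent values, which these are not.

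The response to injury differed between the genotypes for 4 receptors by the limma interaction term. For IOP elevation, the difference on the log2 scale (KO minus WT) was 1.71 for Tlr6, 1.46 for Tlr7 and 1.36 for Tlr13, and for ONC it was 5.60 for Tlr5. The report gives their errors and the settings in which each was lost.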

How the results depend on the processing

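Without 1 library each, receptors called ranged from 0 to 0 (WT IOP), 2 to 5 (WT ONC), 0 to 7 (KO IOP against naïve), 4 to 7 (KO ONC against naïve), 0 to 6 (KO against WT, naïve), 0 to 0 (KO against WT, IOP), 1 to 1 (KO against WT, ONC), 0 to 7 (genotype by IOP) and 1 to 3 (genotype by ONC). Of these fits, the share of all genes called is given only for KO against WT naïve without KO naïve replicate 3. The ranges were therefore not read as particular to the receptors. For WT ONC, where 3 were called, the rod covariate gave 5, DESeq2 (Tlr6 added) and a fit of the compared groups alone (Tlr8 added) gave 4 each, and the border macrophage covariate gave 1. For KO IOP against naïve, the 6 called became 2 in edgeR and 0 in a fit of the compared groups alone, with the rod or Y-linked covariate, without the KO libraries over 10% of WT Spp1, relative to the microglia list, and without KO naïve libraries 1, 2 and 4. For KO ONC against naïve, 6 became 1 with the rod covariate and 0 without the KO libraries over 10% of WT Spp1 or without KO naïve libraries 1, 2 and 4. For KO against WT in naïve retinas, 0 became 1 (Tlr7) with quantile normalization or DESeq2. For KO against WT after ONC, 1 became 0 in the compared groups alone, without the KO libraries over 10% of WT Spp1, and with the border macrophage covariate. For genotype by IOP, 3 became 1 in edgeR and with the border macrophage covariate, and 0 with the rod or Y-linked covariate, relative to the microglia list, without the KO libraries over 10% of WT Spp1 and without KO naïve libraries 1, 2 and 4. For genotype by ONC, 1 became 0 with a pseudocount of 5, relative to the microglia list, with the border macrophage covariate, and without either set of KO libraries. Fits without several libraries have fewer samples, in some cases 1 library in a group, so calls lost in them were not read as results about the receptors. Calls among all genes also changed in several settings. For WT ONC they went from 3093 to 1904 with the rod covariate and 529 with the border macrophage covariate. They were 3676 in DESeq2 and 1749 in the compared groups alone. For KO IOP against naïve they went from 1347 to 559 in edgeR and 5 in the compared groups alone. They were 8 with the Y-linked covariate and 7401 relative to the microglia list. With the rod covariate they fell from 1347 to 9 for KO IOP against naïve and from 4043 to 526 for KO ONC against naïve. With the border macrophage covariate they fell from 15 to 0 for KO against WT after ONC. For the same comparison they fell to 2 in the compared groups alone. For genotype by IOP they went from 1496 to 1215 in edgeR, 923 with the border macrophage covariate and 145 with the rod covariate. They were 73 with the Y-linked covariate and 6126 relative to the microglia list. For KO against WT in naïve retinas they rose from 70 to 392 with quantile normalization and to 536 in DESeq2. The cause of the other shifts was not tested.

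For the 36 receptor fold changes with an unadjusted p under 0.05, signs turned in 22 of 947 alternative values (744 kept direction and call, 159 lost the call and 22 gained it). For the other 54, signs turned in 190 of 1373 alternative values, of which 1 was called (Tlr4 in KO ONC relative to the microglia list, -0.61). Turned values of these 54 included -0.45 for Tlr4 in KO ONC with the rod covariate and, relative to the microglia list, -0.60 for Tlr4 in genotype by IOP, -0.72 for Tlr2 in genotype by ONC and 0.44 for Tlr1 in KO against WT naïve. Among the 36, the turned values relative to the microglia list were -0.26 for Tlr4 in KO IOP, -0.085 for Tlr3 and -0.24 for Tlr13 in KO ONC, 0.041 for Tlr3, 0.14 for Tlr4 and 0.12 for Tlr6 in KO against WT naïve, and -0.035 for Tlr3, -0.027 for Tlr13 and -0.45 for Tlr1 in genotype by IOP. Without KO naïve libraries 1, 2 and 4 they were -0.060 for Tlr13, -0.48 for Tlr4 and -0.089 for Tlr1 in KO IOP, -0.28 for Tlr13 in KO ONC, 0.15 for Tlr3, 0.24 for Tlr13 and 0.46 for Tlr4 in KO against WT naïve, -0.25 for Tlr1 in genotype by IOP and -0.057 for Tlr7 in genotype by ONC. The rod covariate gave -0.024 for Tlr13 in KO ONC and -0.22 for Tlr1 in genotype by IOP, and the border macrophage covariate gave 1.77 for Tlr8 in WT ONC and -0.0071 for Tlr7 in genotype by ONC.

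The replicate numbers are not said to mark a shared batch, and deviations of the 55 pairs of libraries with the same number correlated at -0.253 to 0.230 (median 0.005), so they were not taken as pairs. With the replicate number as a block, 4 receptors were called in genotype by IOP in place of 3 (Tlr3 was added), and the counts of the other comparisons stayed at 0 (WT IOP), 3 (WT ONC), 6 (KO IOP), 6 (KO ONC), 0, 0 and 1 (KO against WT in naïve, IOP and ONC retinas) and 1 (genotype by ONC). Depth limits Tlr5, which had 1 read in 3 WT ONC libraries. At 3 or 4 libraries a group, a receptor that was not called was not shown to be unaffected.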
